A study of Drosophila melanogaster with 3 samples.

Results

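The genes described here are 96 protein-coding genes of Drosophila melanogaster in which the juvenile hormone receptor Met, tagged with a fluorescent protein, had 10 or more peaks of ChIP-seq signal. They were selected on the measured peaks themselves: a gene entered when at least 10 peak summits fell within the gene or the 2 kb before its 5′ end, and 22 genes were set aside by name, of which 14 had reached that number. The 96 genes stood among 13945 annotated protein-coding genes, of which 3896 held 1 to 9 summits and 9939 held none. A count of 10 or more was reached by 0.789% of all protein-coding genes and by 10.5% of those at least 20 kb long, with the named genes included. Together the 96 genes held 1246 of the 8513 summits, or 14.6%. Of the 96 genes, 4 overlap in pairs and share 27 summits, so that Antp with CG46458 and Glut4EF with CG46467 are not separate regions.

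The series has 1 group and no comparison group. It holds 3 biological replicates of ChIP-seq on whole white prepupae, both sexes together, from a transgenic line that stably expresses Met with GFP fused to its C-terminus, and chromatin was pulled down with an antibody to GFP. No wild-type or hormone-treated animals are in the group, and the promoter that drives the transgene is not given in the sources used here. A peak list was deposited for each replicate, another for the replicates pooled, and a list of reproducible peaks, chosen by IDR (irreproducible discovery rate, which compares peak ranks between replicates). Because whole animals were used, a gene with many peaks may be bound in many tissues or in few, and these cannot be told apart. Read totals were not in the peak lists, so that depth is unknown, and the signal of a peak, which is the authors' own value, is used here only to rank peaks within a list. Spreads are given over the 3 replicate lists (SD, n = 3), each taken to as many strongest peaks as the IDR list holds, and values without a spread are of the IDR list alone. The IDR list was derived from those same replicates, so the replicate lists are no independent check of it.

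Met (Methoprene-tolerant) is a basic helix-loop-helix PAS protein that binds juvenile hormone and then acts on transcription together with its partner Taiman. Juvenile hormone holds back metamorphosis in insects, and the white prepupa marks its start, at the close of larval life under the steroid ecdysone. The DNA element named for this receptor in insects is the E-box, CACGTG, and the near-identical C-box, CACGCG. Long developmental genes of the fly commonly carry their enhancers in introns, and the genes described here are mostly of that kind by length.

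Sequences around the strongest peaks of these genes show what the summits look like. Each is 101 bases on the plus strand of the Release 6 (dm6) assembly, centred on the summit and taken from RefSeq. The 4 windows below are those of the genes with the highest signal, Ptp10D (chrX:11623044-11623144), Raf (chrX:2300658-2300758), Hr4 (chrX:1951857-1951957) and pum (chr3R:9229227-9229327). All 4 lie in introns, and none held any of 7 motifs searched on both strands, which were the E-box, the C-box, CATATG, the GATA motif GATAAG, the GAGA motif GAGAG, the DRE TATCGATA and the Zelda motif CAGGTAG; they therefore have no capitals.
Ptp10D: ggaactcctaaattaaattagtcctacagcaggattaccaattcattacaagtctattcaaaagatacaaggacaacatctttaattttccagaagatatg
Raf: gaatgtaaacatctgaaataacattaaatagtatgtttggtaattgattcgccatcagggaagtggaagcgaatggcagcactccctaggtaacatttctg
Hr4: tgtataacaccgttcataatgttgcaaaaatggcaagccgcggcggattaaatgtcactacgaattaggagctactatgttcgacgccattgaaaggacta
pum: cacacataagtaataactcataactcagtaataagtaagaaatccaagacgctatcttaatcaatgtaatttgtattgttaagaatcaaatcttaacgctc
The peak of Ptp10D ranked 14 of 8513 with a signal of 3423.3 and lay 1079 bp from the nearest annotated transcription start site (TSS). The peaks of Raf, Hr4 and pum ranked 43, 61 and 67, with signals of 2369.8, 2105.9 and 2041.1, at 5242, 9967 and 1144 bp from a TSS. The G+C content of the windows was 31.7% in Ptp10D, 38.6% in Raf, 42.6% in Hr4 and 28.7% in pum.

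The next windows are the 4 highest-ranked summits in these genes that did hold an E-box or a C-box, with the motifs in capitals: Snoo (chr2L:7911347-7911447), CG1677 (chrX:7305979-7306079), CG14434 (chrX:6854688-6854788) and crp (chr2L:16269578-16269678). The first 3 hold a C-box, which in CG14434 lies on the minus strand and is therefore printed as CGCGTG. The window of crp holds an E-box between copies of the GAGA motif, which are also in capitals and partly overlap.
Snoo: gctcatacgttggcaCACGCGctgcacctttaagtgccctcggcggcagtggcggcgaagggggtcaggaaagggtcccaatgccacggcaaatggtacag
CG1677: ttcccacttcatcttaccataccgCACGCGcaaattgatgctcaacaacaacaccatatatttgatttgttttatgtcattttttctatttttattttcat
CG14434: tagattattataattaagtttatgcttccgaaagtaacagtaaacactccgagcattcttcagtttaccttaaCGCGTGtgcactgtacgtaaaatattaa
crp: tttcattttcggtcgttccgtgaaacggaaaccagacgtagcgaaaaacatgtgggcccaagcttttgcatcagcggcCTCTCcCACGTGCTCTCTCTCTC
These peaks ranked 1471 in Snoo, 1613 in CG1677, 2016 in CG14434 and 2469 in crp, well behind the strongest peaks shown above, and each was found in all 3 replicate lists. All 4 were in introns, from 1843 bp from a TSS in CG14434 to 20693 bp in Snoo. Their G+C content was 62.4% in Snoo, 31.7% in CG1677, 32.7% in CG14434 and 52.5% in crp.

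CG43658 held the most summits of the 96 genes, 27 in the IDR list, with 23, 25 and 25 in the lists of replicates 1, 2 and 3. It spans 105 kb (chrX:17456169-17561180, gene FBgn0263706). SKIP, which encodes a protein that interacts with the potassium channel Shal, followed with 24 in the IDR list and with 20, 19 and 21 in the replicates, over 162 kb (chr3R:22133830-22296126). CG1677 had 23 summits, with 25, 24 and 22 in the replicates, and Ptp61F, a cytoplasmic tyrosine phosphatase that restrains JAK/STAT signalling, had 22, with 19, 20 and 19. These 4 genes were the only ones of the 96 with 20 or more, and their replicate counts stayed at 19 or above. The median gene of the 96 held 12 summits, 29 held 15 or more and 24 held exactly 10.

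**Figure D1:**
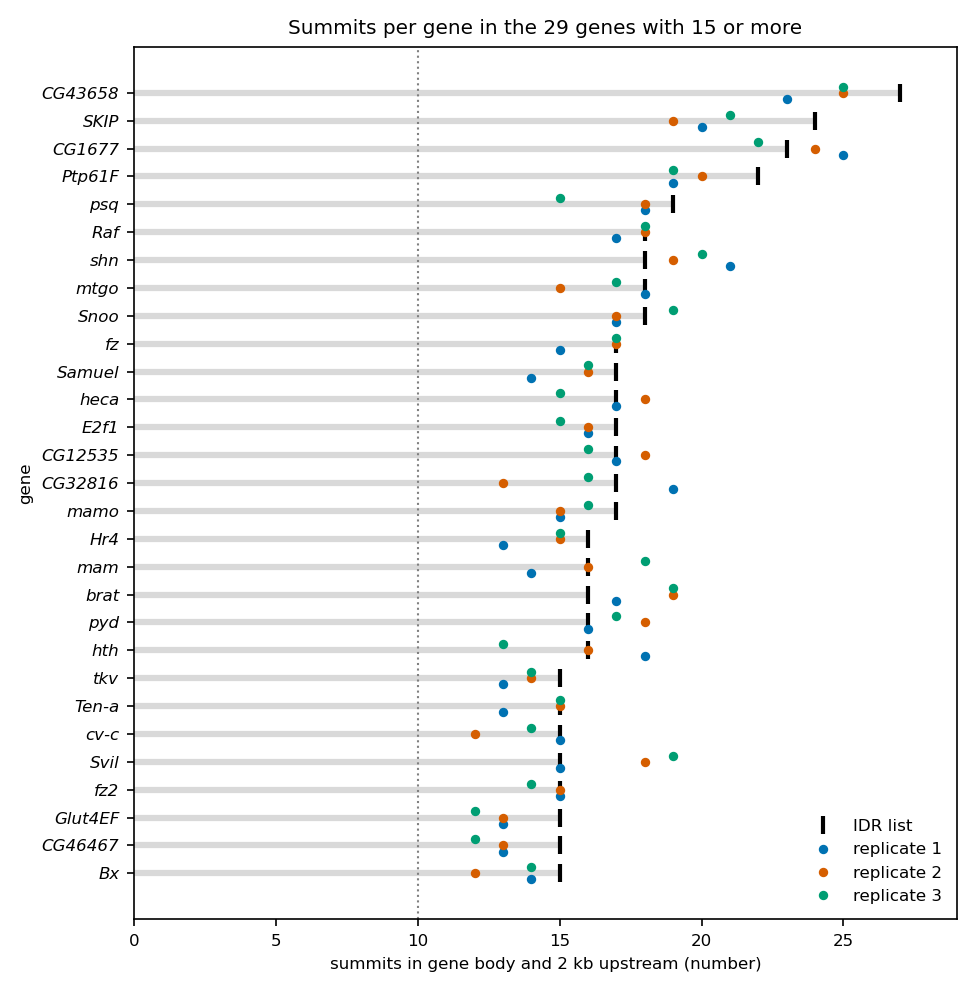
Number of summits in the gene body and 2 kb upstream (x axis) for the 29 genes with 15 or more (y axis); the black tick and grey bar give the IDR list, coloured points the lists of the 3 replicates, and the dotted line marks 10. CG43658 stands at 27 with replicate counts of 23 to 25, and all replicate points of these genes lie right of the line.

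After these came psq, which encodes a BTB-domain DNA-binding protein of the Polycomb and trithorax system, with 19 summits and with 18, 18 and 15 in the replicates. Raf, the kinase that passes the Ras signal to MEK, had 18 summits, with 17, 18 and 18 in the replicates, over 48.4 kb. The gene shn, for the zinc finger cofactor of Mad in BMP signalling, had 18, and all 3 replicate lists gave more, namely 21, 19 and 20. Snoo, a Ski/Sno family regulator of TGF-beta signalling, had 18, with 17, 17 and 19, and mtgo had 18, with 18, 15 and 17. At 17 summits stood fz, the receptor Frizzled, with 15, 17 and 17 in the replicates, the cell cycle factor E2f1 with 16, 16 and 15, heca with 17, 18 and 15, Samuel with 14, 16 and 16, CG12535 with 17, 18 and 16, and CG32816 with 19, 13 and 16. The order is that of the IDR list, and the replicate lists did not keep it throughout: shn, with 18 in the IDR list, had more summits in every replicate list than Raf or mtgo, which also had 18. The SD over replicates was 1.73 for psq, 0.577 for Raf, 1.00 for shn and 3.00 for CG32816.

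The edge of the group was less stable than its top. Over the replicate lists taken alone, 81, 101 and 87 genes outside the named ones reached 10 summits (89.7 ± 10.3, SD, n = 3). When the IDR peaks were limited to those found in both of the other replicates' lists, 58, 53 and 57 genes reached 10 without replicate 1, 2 and 3. Of the 96 genes, 65 had 10 or more in all 3 replicate lists, 31 fell short in at least 1, and 3 fell short in all 3. The lowest replicate count was 6, seen in Smr, a corepressor of the ecdysone receptor, which had 10 in the IDR list and 6, 6 and 10 in the replicates. It was also seen in Fur1, a furin-type protease, with 10 in the IDR list and 9, 9 and 6 in the replicates. The SD over replicates had a median of 1.15 and was highest, at 3.21, in plum, whose 13 summits compared with 16, 10 and 11. Some peaks overlap one another: after overlapping peaks were merged, 82 genes still had 10 or more, and the lowest count was 8, in CG14434.

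With exactly 10 summits, the genes with the strongest peaks were Btk, a Tec-family kinase, with 9, 11 and 8 in the replicates, HmgD, an HMG-box chromatin protein, with 9, 10 and 10, Fur1, Pgant9 with 10, 11 and 11, the epidermal transcription factor grh with 8, 9 and 11, and Smr. Just outside, 21 genes held 9 summits. Among these were CG42238 with 6, 10 and 7 in the replicates, the Wnt co-receptor gene arr with 9, 10 and 10, chn with 7, 7 and 6, Egfr with 9, 10 and 7, cnc, which encodes a bZIP factor of the oxidative stress response, with 6, 10 and 8, and the glypican gene dlp with 8, 10 and 9. The replicate ranges on either side of the limit overlapped, so that the limit of 10 fell within the spread of the lists.

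Most of the 96 genes are long. Their median length was 63.2 kb, against 2.17 kb over all protein-coding genes, and 62 spanned 50 kb or more. The shortest was bowl at 12.4 kb and the longest Ten-a at 292 kb. A count of 10 or more, with the named genes included, was reached by 4 of 964 genes of 10 to 20 kb, 33 of 706 genes of 20 to 50 kb, 44 of 224 genes of 50 to 100 kb and 29 of 83 genes of 100 kb or more, which is 0.415%, 4.67%, 19.6% and 34.9% of each class. None of the 11968 genes under 10 kb reached it. A long gene gives more room for summits, so this order follows in part from the rule. Of the genes of 100 kb or more, 26.5% held no summit. Within the 96 genes, the Spearman rank correlation between length and summits was 0.42, a description over genes chosen by that count.

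Among the 6 longest protein-coding genes with no IDR summit, Myo81F (1965.9 kb), Pzl (709 kb), lovit (434 kb), CG17684 (396 kb) and DIP-lambda (379 kb) had none in any replicate list and none in the longer list of 30000 relaxed peaks of the pooled replicates. How far reads can be placed in these genes was not tested. The last of the 6, bru3 (281 kb), which encodes an RNA-binding protein, had none in the IDR list or in a replicate list but 14 in the relaxed list of the pooled replicates.

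**Figure D2:**
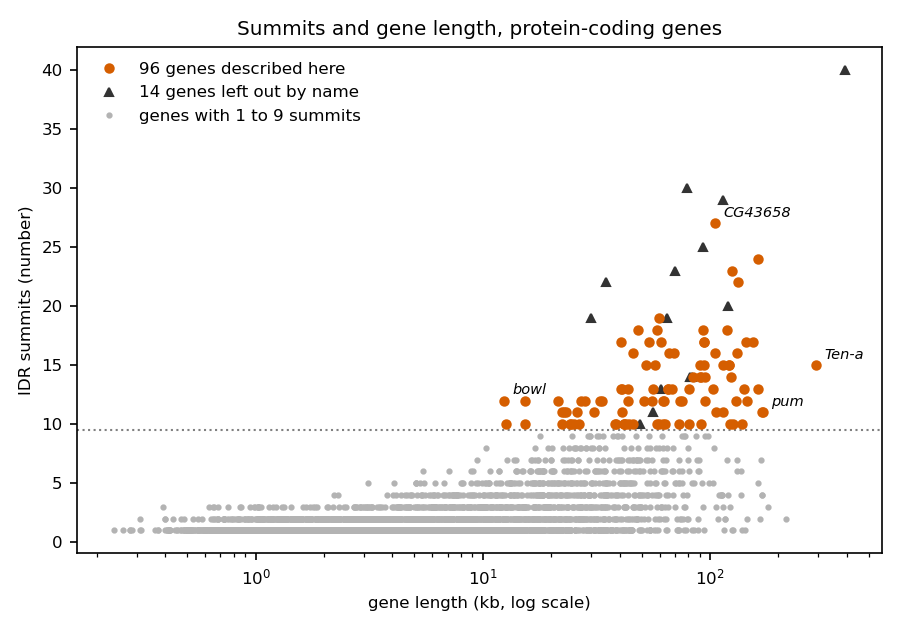
IDR summits per gene (y axis) against gene length (x axis, log scale) for all protein-coding genes with at least 1 summit; orange points are the 96 genes, black triangles the 14 set aside by name and grey points the genes with 1 to 9 summits. Summits of the 96 genes run from 10 to 27 over lengths of 12.4 to 292 kb, and the dotted line marks the limit.

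Since each gene had to hold 10 summits, the shortest ones are also the densest, and the densities are given as a description. The gene bowl, for a zinc finger factor of the odd-skipped family, had 12 summits in 12.4 kb of body and the 2 kb before it, or 8.32 per 10 kb, with 10, 10 and 9 summits in the replicates. CG14434 had 6.94 per 10 kb, Diap1, the inhibitor of apoptosis, 6.84, HmgD 5.79 and atos 5.11. Then came vri, a bZIP repressor of the circadian clock, with 4.53, drn with 4.44, and Tis11, a zinc finger protein of mRNA decay, with 4.37. Several of these counts rest on overlapping peaks or on the upstream window. Merged, bowl, Diap1 and HmgD had 9 peaks and CG14434 had 8. With the gene body alone bowl, Diap1, HmgD and drn had fewer than 10. In HmgD 7 of 10 summits lay within 500 bp of a TSS of any gene, but only 1 near a TSS of its own. The same counts were 5 and 1 in CG14434, 4 and 2 in bowl, and 5 and 4 in Diap1. The median of the 96 genes, chosen by their counts, was 1.92 summits per 10 kb, with 0.636 over the 6 chromosome arms, and 2 genes were below that level, Ten-a at 0.511 and pum at 0.635.

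The spacing of summits varied from gene to gene. The median distance between neighbouring summits of a gene was 2527.5 bp over the 96 genes, with 4043 bp between neighbours along the arms, a difference that the choice of genes by their counts brings with it. It ran from 863 bp in atos to 9847 bp in bun. In 46 genes at least 6 summits fell within 10 kb, in 23 at least 8, and in 9 no more than 3. The densest 10 kb were in atos, with 11 summits, and in psq, Raf and CG14434, with 10 each. In CG1677, 22 of 23 summits lay in the longest intron, which takes up 58.1% of the body. Summits of CG1677 stood in blocks from 67.1 to 71.5 kb and from 98.4 to 114 kb after the annotated 5′ end, with others at 26.0, 80.8, 86.5 and 119 kb.

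Other genes showed other layouts. The mesoderm factor gene twi had all 12 summits in an intron that covers 95.9% of its body, between 13.0 and 49.6 kb from the 5′ end, and had 11, 10 and 12 summits in the replicates. Another protein-coding gene, CG42741, lies within twi, and 9 of the 12 IDR summits also fall in CG42741 or the 2 kb before it. In Raf, 13 of 18 summits lay between -1.74 and 13.3 kb, and 7 of its peaks ranked among the strongest 1000. In Ten-a, a teneurin that matches synaptic partners, 2 summits stood at 32.1 and 38.8 kb and the other 13 between 159 and 205 kb. In Snoo 17 of 18 and in Ptp10D 11 of 12 summits lay in the longest intron. Over all 96 genes, with shared summits counted for each gene, the longest intron made up 40.4% of body length and held 48.6% of body summits. No summit lay in it in 6 genes, fz2 and Fur1 among them. The positions differed widely from gene to gene.

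**Figure D3:**
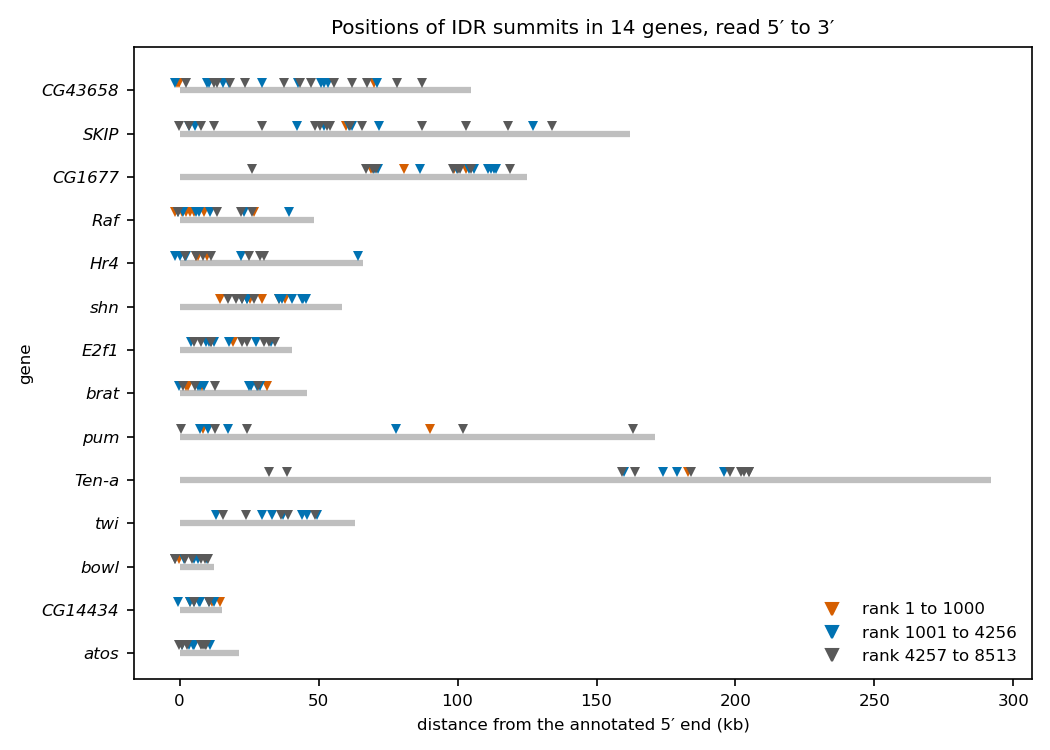
Positions of IDR summits (triangles) along 14 of the genes (grey bars), as distance in kb from the annotated 5′ end (x axis), coloured by rank of the peak in the IDR list, where 1 is the highest signal. All but 1 of the summits of CG1677 lie at 67.1 kb or beyond, those of Ten-a lie mostly between 159 and 205 kb, and those of bowl and atos fill short genes.

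Summits of the 96 genes lay in introns about as often as the introns' share of these genes' sequence. In the IDR list 79.9% were in introns, which made up 78.6% of the length, 16.5% were within 500 bp of a TSS of any gene, which made up 8.07%, and 0.161% were in coding exons, which made up 6.95%. In other genes of 20 kb or more 70.6% were in introns, with 70.9% of the length, and 24.9% near a TSS, with 9.30% of the length. Over the replicate lists the intron share was 79.4%, 79.7% and 78.4% in the 96 genes, against 68.6%, 69.9% and 68.7% in other genes of 20 kb or more and 45.7%, 47.1% and 45.4% in other genes of any length with 1 to 9 summits. The shares near a TSS were 16.7%, 16.8% and 17.9% in the 96 genes, against 26.8%, 25.7% and 26.6% in other genes of 20 kb or more and 45.9%, 44.0% and 46.6% in other genes of any length. The groups did not overlap in either measure. The comparison with genes of 20 kb or more was chosen after the first results were known.

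The intron share differed by 10.1 ± 0.642 percentage points between the 96 genes and other genes of 20 kb or more, beside the difference in intron length given above, and the share near a TSS by -9.24 ± 0.787 points (SD, n = 3). Against other genes of any length the differences were 33.1 ± 0.572 and -28.4 ± 0.996 points. In each comparison the exact sign-flip permutation test over the 3 replicate lists, which was two-sided, gave p = 0.25, the smallest value that 3 lists allow, and 0.333 after Benjamini-Hochberg adjustment over 4 measures. The test therefore could not reach significance. All 3 lists had the same sign, but the genes were chosen from the IDR list of these same replicates, so this is no independent support. What the choice by number of summits brings to these shares was not tested. The number of start sites also differed: the 96 genes had a median of 3 TSSs, against 2 in genes of 20 kb or more below 10 summits and 1 over all protein-coding genes, and its part in the shares was not tested.

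Set against the length of each kind of sequence, both classes were denser in the 96 genes, which follows from their selection. In the 96 genes there were 349 summits per Mb near TSSs and 174 per Mb in introns, against 210 and 78.1 per Mb in other genes of 20 kb or more. In the replicate lists the intron density was 164 ± 2.03 per Mb in the 96 genes and 73.5 ± 2.03 per Mb in the others, and near TSSs it was 345 ± 15.8 and 214 ± 0.920 per Mb (SD, n = 3). Per base the region near a TSS thus held more summits than introns in both groups, while coding exons held 3.95 and 1.91 per Mb. Along the body cut into 3 equal parts, the first part held 39.0% of the summits of the 96 genes, the middle 32.3% and the last 22.8%, with 5.97% upstream. In other genes of 20 kb or more the shares were 40.8%, 29.7% and 16.5%, with 13.0% upstream. For these shares a summit was counted for each gene that held it, so that the 27 summits shared among the 96 genes count for both genes.

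In 74 of the 96 genes at least 1 summit lay within 500 bp of a TSS of that gene, and in 22 none did, among them fz, heca, Snoo, cic, twi and Ptp10D. The strongest peak of the gene was in an intron in 76 genes, near a TSS in 16 and intergenic in 2, which were ds and sm. It was in an exon of klar and of Bicra.

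Peaks of these genes spread over the whole range of signal. Their median rank in the IDR list was 4237, against 4257 over the list, where 1 is the strongest, and 146 of the strongest 1000 peaks, or 14.6%, lay in them, the same share as of all summits. Of the 96 genes, 7 had a peak among the strongest 100: besides Ptp10D, a receptor tyrosine phosphatase, and Raf, Hr4 and pum, these were ds, which encodes the protocadherin Dachsous of the Fat and Hippo pathway, at rank 76, CG32264 at 79 and the phosphatase gene Ptpmeg2 at 90. In Hr4 a further peak ranked 92. In 80 genes the strongest peak ranked 1000 or better. At the other end, the strongest peak of Mur2B ranked 2996 and that of Fas3 ranked 2599. Of the 1246 peaks, 75.2% were overlapped by a peak in all 3 replicate lists, against 73.6% of all 8513, and 8 were overlapped in none. In the replicate lists the median rank was 4283, 3882 and 4151 in the 96 genes, against 4635.5, 4642 and 4518.5 in other genes of 20 kb or more, so that the groups did not overlap. Of the peaks of each replicate list, 79.3 ± 0.990% in the 96 genes and 73.8 ± 1.00% in the others were found in all 3 lists (SD, n = 3). Here each peak counts as found in its own list, unlike in the 75.2% of IDR peaks. The 96 genes were chosen by their number of IDR peaks, which are the strongest peaks of these same replicates pooled. Both measures are therefore tied to that choice, and neither difference was given a test.

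**Figure D4:**
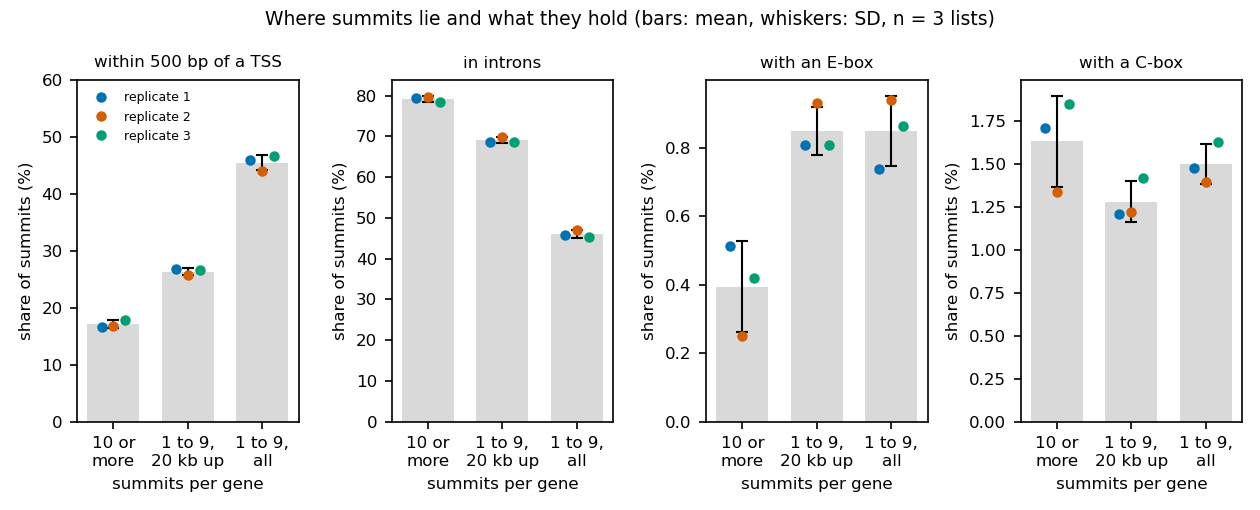
Share of summits in percent (y axes) within 500 bp of a TSS, in introns, with an E-box and with a C-box, for genes with 10 or more summits, for other genes of 20 kb or more and for all other genes with 1 to 9 summits; bars are means, whiskers SD and points the 3 replicate lists. The near-TSS share is 16.7% to 17.9% in the genes with 10 or more, lower than in either other group, and the C-box points of the groups overlap.

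Summit windows of the 96 genes were rich in A and T. The G+C content of the 101 bases at the summit was 33.3%, 33.5% and 34.1% in the replicate lists for the 96 genes, against 33.6%, 33.7% and 34.7% for other genes of 20 kb or more, a difference of -0.363 ± 0.239 points (exact sign-flip permutation test over 3 lists, p = 0.25, adjusted 0.333). The windows 500 bp to either side had 42.0 ± 0.0526% in the 96 genes and 42.6 ± 0.0497% in the others (SD, n = 3).

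Of the 1246 summit windows 23 held an E-box or a C-box, 5 of them an E-box and 18 a C-box, in 20 of the 96 genes. Anywhere in the peak, either motif was present in 9.87% of the peaks of the 96 genes in the IDR list (10.3 ± 0.915% over the replicate lists), against 12 ± 0.779% in other genes of 20 kb or more (SD, n = 3). At the summits the share was 2.22%, 1.59% and 2.27% in the replicate lists for the 96 genes, against 2.02%, 2.16% and 2.22% for other genes of 20 kb or more. The difference was -0.106 ± 0.403 points (exact sign-flip permutation test over 3 lists, p = 1, adjusted 1), smaller than its spread. Over all 8513 summits 0.787% held an E-box and 1.42% a C-box. In the IDR list, windows 500 bp away from the summits of the 96 genes held an E-box in 1.00% and a C-box in 2.65% of cases, against 0.401% and 1.44% at the summits themselves. In the replicate lists the E-box was in 1.03 ± 0.136% of the flanking windows and 0.395 ± 0.132% of the summit windows, and the C-box in 2.14 ± 0.171% and 1.63 ± 0.263% (SD, n = 3). This order is not particular to the 96 genes. Flanking windows also had the higher G+C content, as given above, and its part in the order was not tested. In other genes of 20 kb or more the E-box was in 1.23 ± 0.107% of flanking and 0.85 ± 0.0704% of summit windows. The C-box there was in 2.5 ± 0.0873% and 1.28 ± 0.114% (SD, n = 3). With the motifs taken apart, chosen with results known and given no test, the E-box share was 0.512%, 0.251% and 0.421% in the 96 genes, against 0.809%, 0.931% and 0.809% in other genes of 20 kb or more, and rests on 5 summits of the IDR list in the 96 genes. The C-box share lay the other way, at 1.71%, 1.34% and 1.85% in the 96 genes, against 1.21%, 1.22% and 1.42% in other genes of 20 kb or more, and these ranges overlapped.

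Of the 96 genes, 4 had 2 summits with either motif: Raf, whose E-box lay 127 bp from a TSS at rank 3411 and whose C-box lay at rank 3502, vri and bun with 2 C-boxes each, and atos with 1 of each. For the other motifs the shares were as follows. The GAGA motif was in 11.1 ± 0.665% of summit windows in the 96 genes and in 11.4 ± 0.544% in other genes of 20 kb or more, and the GATA motif in 4.02 ± 0.381% and 4.91 ± 0.394% (SD, n = 3). Over all IDR summits GAGA was in 10.3%, GATA in 4.96%, CATATG in 3.88%, DRE in 0.728% and the Zelda motif in 0.423% of windows. A match is a description of the letters and says nothing on which factor binds.

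By role, 30 of the 96 genes were in 16 lists of pathways and gene classes, of which 15 are reported here, and 66 were in none. Of 25 genes of EGFR and Ras signalling 4 had 10 or more summits, and the list's median was 4 summits, against 0 over all protein-coding genes and 2 over those of 20 kb or more. They were Raf, pnt with 13 (12, 12 and 13 in the replicates), cic with 12 (10, 10 and 13) and aop with 10 (11, 10 and 11). The gene pnt encodes the ETS activator at the end of this pathway, aop the ETS repressor that acts against it, and cic an HMG-box repressor removed by the pathway. Of the rest of the list, Egfr held 9 and the ligand gene spi 7, and 6 genes held none.

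Of 29 RNA-binding and translation regulators 5 had 10 or more, with a list median of 3. The gene brat, for a translational repressor that limits neural stem cell growth, had 16 summits with 17, 19 and 19 in the replicates. The gene pum, for a repressor of mRNA translation, had 11 with 11, 14 and 12, heph, a polypyrimidine tract-binding protein, had 11 with 11, 14 and 10, and sm had 11 in every list. The genes of this list had a median length of 45.9 kb, against 13.3 kb for the EGFR list, so that their lengths differ as well as their counts. Of the 5 genes, pum, heph, sm and shep span 100 kb or more, a class in which 34.9% of protein-coding genes reached 10.

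Among 22 genes of Wnt signalling 3 reached 10, and they were the receptors fz and fz2 and the intracellular antagonist nkd. The gene fz2 had 15 summits with 15, 15 and 14 in the replicates and nkd had 10 with 11, 9 and 12. Of 21 BMP and activin genes 2 reached 10: shn and the type I receptor tkv, which had 15 summits with 13, 14 and 14. Of 16 Hippo and Fat genes 2 did: ds with 12 summits and 8, 12 and 11 in the replicates, and kibra, an upstream activator of the Hippo kinase, with 10 and with 8, 10 and 10. The Notch list had 1 of 19, the coactivator mam, with 16 summits and with 14, 16 and 18. The JAK/STAT and JNK list had 1 of 17, kay, the fly Fos, whose 12 summits compared with 9, 7 and 9, under 10 in every replicate. No gene of the 11 of Hedgehog signalling or of the 16 of cAMP and cGMP signalling reached 10. The median length was 6.62 kb in the Hedgehog list and 33.5 kb in the cAMP and cGMP list. No protein-coding gene under 10 kb reached 10.

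Of 40 patterning transcription factors 5 reached 10, with a list median of 1. They included hth, a homeodomain partner of Hox proteins, with 16 summits and with 18, 16 and 13 in the replicates, and twi, bowl and grh. Most summits of twi are also counted for CG42741, which lies within it. Antp, a Hox gene, held 13 with 11, 12 and 11. Hr4 and Hr3, nuclear receptors of the ecdysone response, held 16 with 13, 15 and 15, and 12 in every list. The protein-coding gene CG12912 lies within Hr3 and held 9 IDR summits in its own region, so that summits of Hr3 are also counted for CG12912. The gene sima, which encodes a bHLH-PAS protein of the oxygen response and so a relative of Met, held 10 with 9, 10 and 10.

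Of 51 neuronal adhesion and guidance genes 3 did: Ten-a with 15 (13, 15 and 15), Ptp10D with 12 (13, 12 and 11) and Fas3 with 10 in every list. Of 20 polarity and junction genes 1 did, the ZO-1 homologue pyd, with 16 (16, 18 and 17), and of 28 Polycomb and trithorax genes 1 did, psq. None of 33 ion channel and receptor genes of neurons and none of 21 sarcomere genes had 10, and 21 and 13 of them had no summit. The ion channel genes had a median length of 36.3 kb and the sarcomere genes one of 14.4 kb. The lists hold genes of all lengths and were not matched for length. A count of 10 or more was reached by 0.789% of all protein-coding genes and 10.5% of those of 20 kb or more. The share was 17.2% in the RNA list, 16% in the EGFR list, 13.6% in the Wnt list and 12.5% in both the Hippo list and the patterning list, and it was under 10.5% in the 10 other lists reported.

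**Figure D5:**
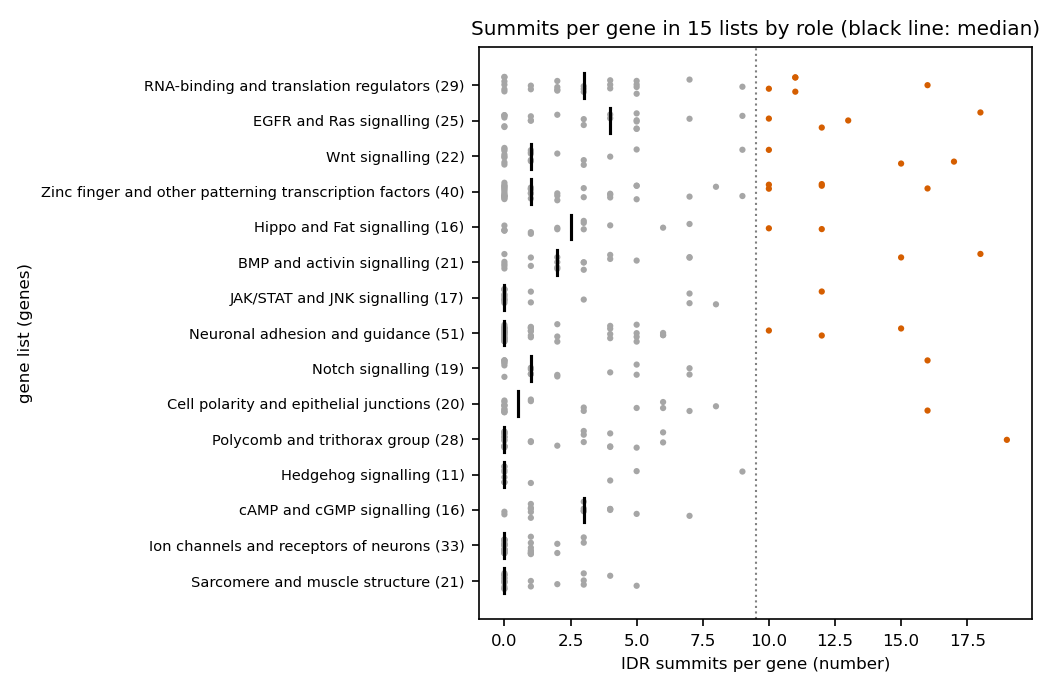
IDR summits per gene (x axis) in 15 lists by role (y axis, with the number of genes), sorted by the share with 10 or more; orange points are genes described here, grey points other genes, black lines list medians, and points are spread vertically to be seen. RNA-binding and EGFR genes have the highest shares, 17.2% and 16%, and the ion channel and sarcomere lists have no orange point. The lists are not matched for gene length.

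By chromosome arm, 24 of the 96 genes lay on X and 24 on 3R, 18 on 2L, 15 on 2R and 15 on 3L, and none of the 80 genes of chromosome 4 was among them. The X held 25% of the 96 genes, against 15.7% of all protein-coding genes and 19.5% of those of 20 kb or more. Apart from the overlapping pairs named above, 5 pairs of these genes lay within 20 kb of each other: Tis11 and Smr, klar and Hipk, tou and atos, tkv and vri, and NK7.1 and cv-c. The gap was 1642 bp between Tis11 and Smr and 18731 bp between NK7.1 and cv-c.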

How the data were processed

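ChIP-seq of GFP-tagged Met was deposited as peak lists for 3 replicates in 1 group. Per the text listings deposited with the libraries, relaxed lists of each replicate and of the pooled replicates were called against a control and an IDR list was derived from them; the sources used here do not name the aligner or peak caller. Each peak's signal is the authors' deposited value, on a scale that depends on depth, which is unknown. The 5 lists in dm6 were used, and no column belonged to other samples; control reads and the dm3 lists were not used here. The 8513 IDR peaks are the 8513 strongest of the 30000 pooled relaxed peaks by signal.

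A summit was counted for every protein-coding gene (Ensembl release 115, BDGP6.54) whose body or 2 kb upstream held it, on 6 chromosome arms. Summits within 500 bp of any annotated TSS were called near a TSS, and the others were placed by annotation. Motifs and G+C were read in 101 bp windows from the RefSeq Release 6 assembly, with flanks centred 500 bp away. Coordinates are 1-based. The members and the gene lists were chosen with earlier results of these data known; of 402 listed symbols 4 were not matched. The result of 1 list is not reported here. Genes were named by rule: the 15 with most summits, the 8 densest, those with a peak in the strongest 100, up to 4 per list, 6 at exactly 10 and 6 at 9 summits, and the 6 longest without a summit; others were named after their values were seen. Replicate lists were compared by exact sign-flip permutation tests; these measure the spread of these lists only. Analyses used Python 3.11.15, pandas 2.3.3 and scipy 1.17.1, and the counting was tested on simulated data. Alternatives were other gene regions, peak overlap, stronger peaks, merged peaks, replicate lists, leaving out replicates, thresholds, distances and windows.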

Additional observations from a re-analysis of the deposited data

How the results depend on the processing

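Over other gene regions, overlap rules and replicate lists the number of genes was 78 to 105, against 96 as defined. It was 146 at a limit of 8 summits, 29 at a limit of 15, and 13 in the stronger 4256 of the IDR peaks, where fewer peaks were counted. With other gene regions, stronger peaks, merged peaks or a replicate left out, the genes were chosen anew at 10 summits. The further values of these settings describe the genes chosen there, not the 96 genes. Apart from the number of genes, values of a replicate list are of the 96 genes. Without 1 replicate, with peaks required in both of the others, it was 53 to 58, the share of summits 9.74% to 10.4%, the density 1.49 to 1.58 per 10 kb, the median rank 3348.5 to 3435, the intron share 79.1% to 79.4%, the near-TSS share 16.3% to 16.7%, G+C 32.6% to 33.0% and the E-box or C-box share 1.56% to 1.98%. The share of summits (14.6%) was 12.3% with the gene body alone, 15.9% with 5 kb upstream, 3.59% with the stronger peaks, 11.9% with each summit given to the shortest region, 13.1% with merged peaks, and 13.8%, 14% and 14% in replicates 1, 2 and 3. The density (1.92 per 10 kb) was 1.86 with 5 kb upstream, 1.16 with the stronger peaks, 2.06 with the shortest region, 1.69 with merged peaks, and 1.81 and 1.79 in replicates 1 and 3. The near-TSS share (16.5%) was 12.9% with the gene body alone, 18.3% with the stronger peaks, 14.3% with the shortest region, 14.5% with merged peaks, 17.9% in replicate 3, 8.99% within 200 bp and 25.3% within 1000 bp. The intron share (79.9%) was 85.3%, 77.9%, 76.5%, 82.2% and 82.1% with the gene body alone, 5 kb upstream, stronger peaks, shortest region and merged peaks, and 78.4% in replicate 3. G+C (32.9%) was 31.6% with stronger peaks, 32.3% with merged peaks, 33.5% and 34.1% in replicates 2 and 3, and 35.0% in windows reaching 100 bp either way. The E-box or C-box share (1.85%) was 3.27% with stronger peaks, 2.27% in replicate 3 and 4.09% in windows reaching 100 bp either way. The share overlapped in all 3 lists (75.2%) was 100% with stronger peaks, 73.3% with merged peaks and 99.1% in the whole relaxed lists. The median rank (4237) was 1671 with stronger peaks and 3882 in replicate 2. The cause of these shifts was not tested beyond what each setting changes by its construction. Merged peaks were added after seeing the data.

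No paired analysis was possible because the series has 1 group of samples. The sign-flip tests set sets of genes against each other within each replicate list and pair no samples. Depth is unknown, so that a gene just below 10 summits may differ from one just above only in how many peaks were called. In the stronger peaks the 13 genes were CG43658, CG1677, Raf, Snoo, Svil, brat, fz2, heca, mtgo, psq, pyd, shn and CG14434. Giving each summit to the shortest region took 18 genes below 10, among them Antp, twi, Hr3, sima, Fas3 and heph. Counting the body alone took 14 below 10, among them bowl, Diap1, aop, sm, kibra and nkd.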
